A study of Mus musculus with 10 samples.

Results

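A set of 37 macrophage marker genes was followed through 10 RNA sequencing libraries of mouse embryonic stem cells, out of 30460 genes listed in each library. The genes were listed as known markers of macrophages with results of these libraries already known, so levels set against wild type are descriptions and carry no test. All cells were of the C57BL/6 strain. The genotypes were Mga-/- (3 libraries), L3mbtl2-/- (2) and Pcgf6-/- (2), called knockouts here, and wild type (3), and the 3 targeted genes encode subunits of a variant Polycomb repressive complex. Depth was 19370092 to 26726692 assigned reads per library. The labels do not say whether the knockouts are single clones, whether replicates are separate cultures or whether feeder cells were present. A p-value therefore covers only the spread among these libraries, which may be technical. The summed level of 10 pluripotency genes was 2470 to 4256 FPKM (fragments per kilobase of exon, scaled to the assigned reads of the library), which fits the labelled cell type in every library.

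Mga was at 43.5%, 106% and 60.5% of the wild type mean in the 3 libraries labelled as its knockout. The level in replicate 2 was that of wild type and by itself neither bears out that label nor shows it to be wrong. The 3 libraries are called Mga-labelled libraries here. L3mbtl2 was at 18.4% and 17.3% in the L3mbtl2 knockout libraries, and Pcgf6 was at 33.1% and 34.0% in the Pcgf6 knockout libraries. These values sum all exons and do not show a change within 1 exon.

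Macrophages are phagocytes of the myeloid lineage. Their identity depends on the transcription factor encoded by Spi1 and on signalling of the receptor encoded by Csf1r, and they are known for lysozyme, lysosomal proteases, complement, chemokines, Fc receptors and scavenger receptors. Embryonic stem cells are not blood cells, although a culture of them can hold differentiated cells in small numbers.

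Spi1 is 1 of the set, and the protein it encodes recognises DNA with the core GAGGAA. RefSeq promoters (GRCm38.p6) were matched for 27 of the 37 genes. Within 250 bases before the start, GAGGAA was found on either strand in 17 of these 27 (63.0%), against 6986 of 27025 genes with a promoter (25.9%). A match is a description of these letters and not a shown binding site. Stretches of 150 bases upstream of 5 genes whose levels the results turn on are shown, 5′ to 3′ on the strand of each gene, with each GAGGAA or its reverse complement TTCCTC in capitals. They lie at chr4:136886201-136886350 (minus strand, C1qb), chr11:83649379-83649528 (minus, Ccl3), chr10:117282322-117282471 (minus, Lyz2), chr9:7344231-7344380 (plus, Mmp12) and chr5:90772285-90772434 (plus, Pf4).
C1qb: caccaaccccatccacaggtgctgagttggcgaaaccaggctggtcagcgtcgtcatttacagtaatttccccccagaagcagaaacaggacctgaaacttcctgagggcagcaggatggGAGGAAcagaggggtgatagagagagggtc
Ccl3: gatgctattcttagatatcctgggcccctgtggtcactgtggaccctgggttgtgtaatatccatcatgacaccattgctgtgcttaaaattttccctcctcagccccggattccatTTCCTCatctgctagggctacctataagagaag
Lyz2: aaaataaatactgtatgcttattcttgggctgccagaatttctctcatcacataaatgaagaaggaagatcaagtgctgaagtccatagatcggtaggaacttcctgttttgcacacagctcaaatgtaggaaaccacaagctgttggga
Mmp12: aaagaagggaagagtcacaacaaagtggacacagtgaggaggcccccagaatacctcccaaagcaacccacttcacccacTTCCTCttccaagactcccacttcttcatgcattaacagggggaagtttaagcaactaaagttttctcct
Pf4: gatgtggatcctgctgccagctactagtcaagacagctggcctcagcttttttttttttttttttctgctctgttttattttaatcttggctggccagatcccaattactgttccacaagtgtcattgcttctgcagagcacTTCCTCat
C1qb, Ccl3, Mmp12 and Pf4 each hold 1 match in the stretch shown. Lyz2, the most abundant gene of the set in wild type, L3mbtl2 knockout and Pcgf6 knockout, holds none in it.

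The genes were low in the Mga-labelled libraries, high in L3mbtl2 knockout and mixed in Pcgf6 knockout. Summed over the 37 genes, the level was 88.1, 98.6 and 43.1 FPKM in the Mga-labelled libraries, replicates 1 to 3. It was 703 and 689 FPKM in L3mbtl2 knockout and 335 and 332 FPKM in Pcgf6 knockout, against 262 to 270 FPKM in wild type (lowest and highest of 3). The 4 genes that did not follow the rest (Lgals3, Cd68, Laptm5 and Coro1a, chosen after their values were seen) carried most of the sum in the Mga-labelled libraries. Without them the sums were 25.4, 2.86 and 3.43 FPKM there, 597 and 585 FPKM in L3mbtl2 knockout and 245 and 246 FPKM in Pcgf6 knockout, against 174 to 179 FPKM in wild type. In bulk RNA, fewer cells of a type and less RNA per cell cannot be told apart.

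**Figure D1:**
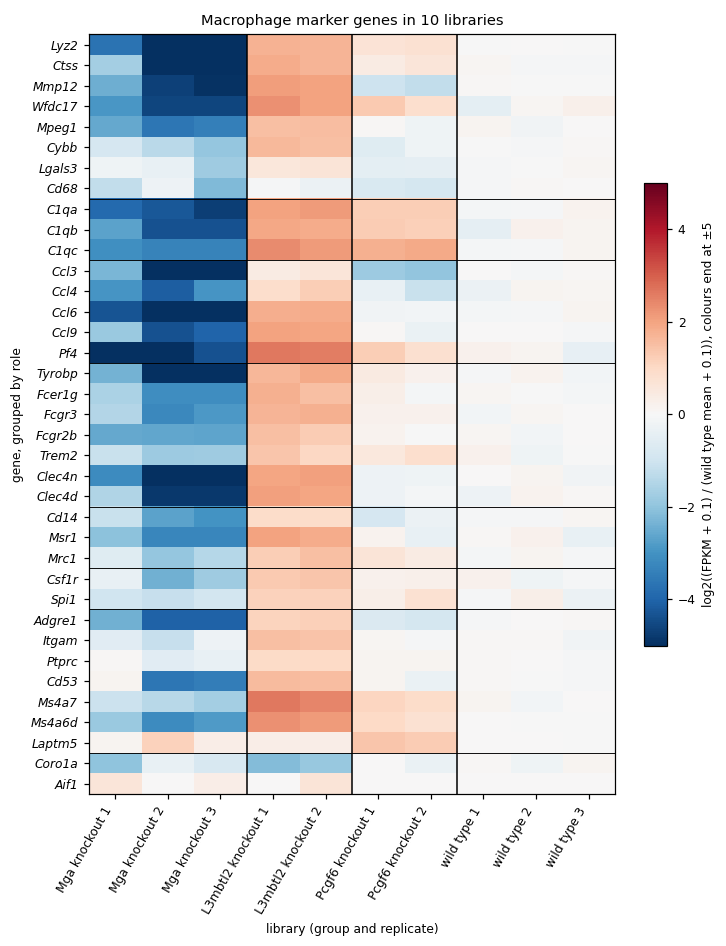
Level of each of the 37 genes (rows, grouped by role) in each library (columns), as log2 of (FPKM + 0.1) over the wild type mean + 0.1. Mga-labelled replicate 1 stands between wild type and the other Mga-labelled libraries for most genes, and Laptm5 and Coro1a break the colour of their columns.

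Of the 37 genes, 35 passed the filter of 0.5 FPKM in 2 libraries. Ptprc and Aif1 did not, and Cybb and Itgam passed only through the L3mbtl2 knockout libraries. In limma fits over 15731 genes, given here as description, 0 genes of the set were called higher and 31 of 35 lower in the Mga-labelled libraries than in wild type, where 39.5% of all genes were called (22.8% higher and 16.7% lower). In L3mbtl2 knockout 21 were called higher and 1 lower than in wild type, where 40.0% of all genes were called (23.4% higher and 16.7% lower). In Pcgf6 knockout 4 were called higher and 0 lower, where 10.1% were called (5.45% higher and 4.62% lower). At an unadjusted p under 0.05 the counts were 34, 27 and 8, and the share of all genes at that threshold was not counted. The median log2 change of the 35 genes was -2.83 in the Mga-labelled libraries, 1.64 in L3mbtl2 knockout and 0.08 in Pcgf6 knockout, and that of all genes tested was 0.10, 0.13 and 0.04. These comparisons share the wild type libraries.

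Lysosomal and secreted digestive proteins made up most of the signal. Lyz2 (ENSMUSG00000069516, chromosome 10, 117277331 to 117282321, GRCm38), the lysozyme of macrophages, had 7.26, 0.196 and 0.197 FPKM in the Mga-labelled libraries, 315 and 305 FPKM in L3mbtl2 knockout and 153 and 159 FPKM in Pcgf6 knockout, against 93.3, 96.3 and 93.7 FPKM in wild type. None of the 4 groups overlapped another, and the L3mbtl2 knockout libraries were highest. The ratio of read rates to wild type was 3.28 in L3mbtl2 knockout (exact 95% counting interval 3.20 to 3.36) and 1.65 in Pcgf6 knockout (1.60 to 1.70). Lyz1, its near-identical neighbour with which it may share reads, was at 0 to 0.133 FPKM.

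Mmp12 (ENSMUSG00000049723, chromosome 9, 7344381 to 7369499), the elastase of macrophages, had 0.908, 0.114 and 0.0805 FPKM in the Mga-labelled libraries, 23.1 and 22.2 FPKM in L3mbtl2 knockout and 2.59 and 2.27 FPKM in Pcgf6 knockout, against 5.63, 5.30 and 5.28 FPKM in wild type. Its Pcgf6 knockout libraries lay below all wild type libraries and its L3mbtl2 knockout libraries above them. The ratio to wild type was 4.20 in L3mbtl2 knockout (4.03 to 4.38) and 0.453 in Pcgf6 knockout (0.417 to 0.490).

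Cd68, a glycoprotein of lysosomes and endosomes, had 15.9, 31.2 and 8.01 FPKM in the Mga-labelled libraries, 36.3 and 30.4 FPKM in L3mbtl2 knockout and 21.99 and 20.5 FPKM in Pcgf6 knockout, against 36.0, 38.5 and 37.7 FPKM in wild type. It was not above wild type in L3mbtl2 knockout, with a ratio of 0.891 (0.843 to 0.942). Lgals3, a galactose-binding lectin, had 28.9, 26.5 and 9.77 FPKM in the Mga-labelled libraries, 49.7 and 52.6 FPKM in L3mbtl2 knockout and 24.1 and 25.1 FPKM in Pcgf6 knockout, against 32.4, 33.3 and 36.0 FPKM in wild type. Both genes kept at least 8.01 FPKM in the Mga-labelled libraries, where Lyz2 was as low as 0.196 FPKM. Among the other genes of this role, Ctss (a lysosomal protease) averaged 0.555 ± 0.908 FPKM in the Mga-labelled libraries (SD, n = 3), 19.0 ± 1.40 FPKM in L3mbtl2 knockout (n = 2) and 7.81 ± 0.732 FPKM in Pcgf6 knockout (n = 2), against 5.49 ± 0.369 FPKM in wild type (n = 3). Wfdc17, a small secreted protein, averaged 0.0756 ± 0.131, 10.7 ± 1.30 and 5.08 ± 1.16 FPKM in the same 3 groups, against 2.33 ± 0.610 FPKM in wild type. Mpeg1, a pore-forming protein, averaged 0.242 ± 0.138, 8.41 ± 0.111 and 2.76 ± 0.404 FPKM, against 2.88 ± 0.319 FPKM in wild type. Cybb, the catalytic subunit of the phagocyte NADPH oxidase, averaged 0.133 ± 0.0861, 1.63 ± 0.0848 and 0.341 ± 0.0837 FPKM, against 0.481 ± 0.0262 FPKM in wild type.

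The 3 chains of complement C1q, which binds antibody complexes and dying cells, lie side by side on chromosome 4 (136880129 to 136898803) and were above wild type in both L3mbtl2 and Pcgf6 knockout. C1qa had 0.0775, 0.0397 and 0 FPKM in the Mga-labelled libraries, 10.6 and 11.4 FPKM in L3mbtl2 knockout and 6.13 and 6.16 FPKM in Pcgf6 knockout, against 2.37, 2.41 and 2.85 FPKM in wild type. C1qb had 0.222, 0 and 0 FPKM in the Mga-labelled libraries, 7.90 and 7.46 FPKM in L3mbtl2 knockout and 4.91 and 4.65 FPKM in Pcgf6 knockout, against 1.42, 2.30 and 2.18 FPKM in wild type. C1qc had 0.0209, 0 and 0 FPKM in the Mga-labelled libraries, 5.06 and 4.32 FPKM in L3mbtl2 knockout and 3.30 and 3.64 FPKM in Pcgf6 knockout, against 0.845, 0.853 and 1.01 FPKM in wild type. For all 3 chains the groups were ordered L3mbtl2 knockout, Pcgf6 knockout, wild type, Mga knockout from high to low, with no overlap. Their ratios to wild type were 4.31, 3.87 and 5.19 in L3mbtl2 knockout. In Pcgf6 knockout they were 2.41, 2.41 and 3.81.

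All 5 chemokines had both L3mbtl2 knockout libraries above all wild type libraries. Ccl6 (chromosome 11, 83587882 to 83593087), a chemokine of myeloid cells, had 0.562, 0.0460 and 0.162 FPKM in the Mga-labelled libraries, 46.3 and 47.5 FPKM in L3mbtl2 knockout and 11.5 and 11.9 FPKM in Pcgf6 knockout, against 12.1, 12.5 and 14.3 FPKM in wild type. Ccl3 (chromosome 11, 83647844 to 83649355), an inflammatory chemokine, had 1.37, 0.108 and 0.0543 FPKM in the Mga-labelled libraries, 9.46 and 10.8 FPKM in L3mbtl2 knockout and 1.97 and 1.75 FPKM in Pcgf6 knockout, against 7.32, 6.74 and 7.36 FPKM in wild type. Both genes were below wild type in every Pcgf6 knockout library, Ccl3 with a ratio of 0.262 (0.197 to 0.343) and Ccl6 with 0.898 (0.827 to 0.973). Pf4 (chromosome 5, 90772435 to 90773383), a chemokine best known from platelets and also made by macrophages, went the other way in Pcgf6 knockout. It had 0, 0 and 0.0577 FPKM in the Mga-labelled libraries, 19.8 and 18.8 FPKM in L3mbtl2 knockout and 7.403 and 5.59 FPKM in Pcgf6 knockout, against 3.60, 3.48 and 2.29 FPKM in wild type. Ccl4 averaged 0.0828 ± 0.0717 FPKM in the Mga-labelled libraries, 3.54 ± 0.671 FPKM in L3mbtl2 knockout and 0.972 ± 0.378 FPKM in Pcgf6 knockout, against 1.64 ± 0.266 FPKM in wild type. Ccl9 averaged 0.168 ± 0.268, 8.10 ± 0.104 and 1.80 ± 0.346 FPKM in the same groups, against 1.97 ± 0.0516 FPKM in wild type.

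**Figure D2:**
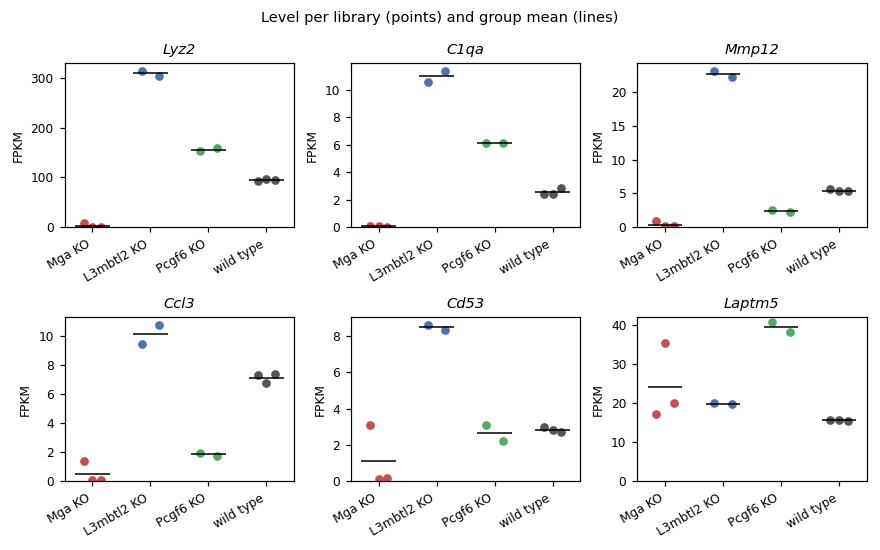
FPKM of 6 genes in every library (points) with group means (lines), linear axes from 0. Lyz2 and C1qa lie above wild type in both L3mbtl2 and Pcgf6 knockout, Mmp12 and Ccl3 only in L3mbtl2 knockout, Cd53 is at 3.10 FPKM in 1 Mga-labelled library, and Laptm5 is highest in Pcgf6 knockout.

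The receptors for antibody and sugars and their signalling adaptors had both L3mbtl2 knockout libraries above all wild type libraries. Clec4n, a C-type lectin that binds fungal sugars, had 0.398, 0 and 0 FPKM in the Mga-labelled libraries, 17.3 and 18.2 FPKM in L3mbtl2 knockout and 3.58 and 3.64 FPKM in Pcgf6 knockout, against 4.39, 4.69 and 3.78 FPKM in wild type. Fcgr3, an activating receptor for antibody, had 1.46, 0.357 and 0.479 FPKM in the Mga-labelled libraries, 13.9 and 14.6 FPKM in L3mbtl2 knockout and 4.84 and 4.91 FPKM in Pcgf6 knockout, against 3.73, 4.505 and 4.27 FPKM in wild type. Clec4n was below wild type in both Pcgf6 knockout libraries and Fcgr3 above it. The adaptors Tyrobp and Fcer1g averaged 0.214 ± 0.371 and 0.373 ± 0.317 FPKM in the Mga-labelled libraries, 13.2 ± 1.46 and 7.64 ± 0.978 FPKM in L3mbtl2 knockout, and 4.71 ± 0.574 and 2.55 ± 0.509 FPKM in Pcgf6 knockout, against 3.73 ± 0.450 and 2.38 ± 0.197 FPKM in wild type. Clec4d averaged 0.294 ± 0.510, 11.3 ± 0.269 and 2.41 ± 0.205 FPKM in the same groups, against 2.72 ± 0.422 FPKM in wild type. Fcgr2b, the inhibitory antibody receptor, averaged 0.113 ± 0.00531, 3.27 ± 0.374 and 1.28 ± 0.134 FPKM, against 1.195 ± 0.110 FPKM in wild type. Trem2, a lipid-sensing receptor, averaged 0.0604 ± 0.0465, 0.983 ± 0.175 and 0.653 ± 0.110 FPKM, against 0.364 ± 0.0726 FPKM in wild type.

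Of the pattern and scavenger receptors, Cd14, the co-receptor for bacterial lipopolysaccharide, had 2.44, 0.762 and 0.582 FPKM in the Mga-labelled libraries, 10.2 and 10.2 FPKM in L3mbtl2 knockout and 2.93 and 4.34 FPKM in Pcgf6 knockout, against 5.16, 5.09 and 5.76 FPKM in wild type. Msr1, a scavenger receptor for modified lipoprotein, had 0.131, 0 and 0 FPKM in the Mga-labelled libraries, 3.75 and 3.38 FPKM in L3mbtl2 knockout and 0.991 and 0.646 FPKM in Pcgf6 knockout, against 0.8997, 1.02 and 0.639 FPKM in wild type. Cd14 was lower in Pcgf6 knockout than in any wild type library, while Msr1 overlapped wild type there. The mannose receptor Mrc1 averaged 0.141 ± 0.113, 1.37 ± 0.186 and 0.713 ± 0.0910 FPKM in the Mga-labelled, the L3mbtl2 knockout and the Pcgf6 knockout libraries, against 0.462 ± 0.0481 FPKM in wild type.

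The lineage genes were low throughout. Csf1r, the receptor for the growth factor on which macrophages depend, had 0.669, 0.0845 and 0.187 FPKM in the Mga-labelled libraries, 2.34 and 2.49 FPKM in L3mbtl2 knockout and 1.03 and 1.08 FPKM in Pcgf6 knockout, against 1.04, 0.758 and 0.854 FPKM in wild type. Spi1, the myeloid transcription factor, had 0.299, 0.261 and 0.324 FPKM in the Mga-labelled libraries, 1.70 and 1.68 FPKM in L3mbtl2 knockout and 0.894 and 1.28 FPKM in Pcgf6 knockout, against 0.683, 0.875 and 0.558 FPKM in wild type. Spi1 kept about the same level in all 3 libraries labelled Mga knockout, in which Lyz2 ranged over 0.196 to 7.26 FPKM. An exon of Csf1r overlaps Hmgxb3 on the opposite strand (17.5 FPKM in wild type), and the library kit does not mark strand.

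Among leukocyte surface and membrane proteins, Adgre1, a macrophage adhesion receptor, had 0.286, 0.0255 and 0.0257 FPKM in the Mga-labelled libraries, 4.28 and 4.55 FPKM in L3mbtl2 knockout and 1.15 and 1.002 FPKM in Pcgf6 knockout, against 1.87, 1.96 and 2.02 FPKM in wild type. Cd53, a tetraspanin of leukocytes, had 3.10, 0.142 and 0.167 FPKM in the Mga-labelled libraries, 8.63 and 8.37 FPKM in L3mbtl2 knockout and 3.09 and 2.22 FPKM in Pcgf6 knockout, against 2.98, 2.81 and 2.72 FPKM in wild type. Mga-labelled replicate 1 thus held Cd53 above every wild type library, although Lyz2 was far below them there. Ms4a7, a membrane protein of macrophages, had 0.0815, 0.0464 and 0.0187 FPKM in the Mga-labelled libraries, 2.27 and 2.00 FPKM in L3mbtl2 knockout and 0.706 and 0.638 FPKM in Pcgf6 knockout, against 0.319, 0.252 and 0.287 FPKM in wild type. Its relative Ms4a6d averaged 0.0545 ± 0.0745, 3.91 ± 0.299 and 1.52 ± 0.169 FPKM in the Mga-labelled, the L3mbtl2 knockout and the Pcgf6 knockout libraries, against 0.777 ± 0.0187 FPKM in wild type. The integrin chain Itgam averaged 0.0818 ± 0.0542, 0.672 ± 0.0217 and 0.181 ± 0.0231 FPKM, against 0.178 ± 0.0248 FPKM in wild type. Ptprc, the phosphatase found on nearly all leukocytes, averaged only 0.0237 ± 0.0283, 0.189 ± 0.00735 and 0.0630 ± 0.00263 FPKM, against 0.0482 ± 0.00625 FPKM in wild type, where it had 68 reads in all.

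Laptm5 and Coro1a did not follow the rest of the set. Laptm5 (chromosome 4, 130913125 to 130936141), a lysosomal membrane protein of blood cells, had 17.1, 35.3 and 19.95 FPKM in the Mga-labelled libraries, 19.9 and 19.7 FPKM in L3mbtl2 knockout and 40.7 and 38.2 FPKM in Pcgf6 knockout, against 15.7, 15.8 and 15.5 FPKM in wild type. All 7 knockout libraries lay above all wild type libraries. Coro1a (chromosome 7, 126699773 to 126707787), an actin regulator of leukocytes, had 0.811, 2.69 and 1.97 FPKM in the Mga-labelled libraries, 0.711 and 0.873 FPKM in L3mbtl2 knockout and 3.59 and 2.80 FPKM in Pcgf6 knockout, against 3.67, 3.07 and 3.85 FPKM in wild type. It was the only gene of the set with both L3mbtl2 knockout libraries below all wild type libraries, at a ratio of 0.225 (0.181 to 0.276), and an exon overlaps Bola2 on the opposite strand (6.81 FPKM in wild type). Aif1, a calcium-binding protein of macrophages and microglia, had 2, 0 and 1 reads in the Mga-labelled libraries, 0 and 2 in L3mbtl2 knockout and 0 in each Pcgf6 knockout library, against 0 in each wild type library.

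The question was whether the genes moved by 1 factor, as the transcripts of 1 admixed cell population in fixed proportions would. The common factor of a library was taken as the median, over the 36 genes with at least 20 reads per wild type library on average, of its FPKM over the wild type mean. It was 0.236, 0.0181 and 0.0611 in the Mga-labelled libraries, replicates 1 to 3, 3.42 and 3.27 in both L3mbtl2 knockout libraries and 1.16 and 0.965 in those of Pcgf6 knockout, against 0.997 to 1.006 in wild type. A gene was said to depart where the exact 95% counting interval of its ratio left out the factor. Set against the other wild type libraries, 5, 4 and 4 of 36 genes departed in the 3 wild type libraries. Between the 2 replicates, 4 departed in L3mbtl2 knockout and 5 in Pcgf6 knockout. Intervals cover counting error only.

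Against wild type, 26 of 36 genes departed in L3mbtl2 knockout (factor 3.40, both libraries pooled) and 26 of 36 in Pcgf6 knockout (factor 1.08). In Mga-labelled replicate 1 the count was 22. In replicates 2 and 3 of that label it was 18 and 22. Taken singly, the L3mbtl2 knockout libraries had 24 and 22 departures and those of Pcgf6 knockout 21 and 22. All of these counts were above the 4 or 5 found between replicates. Within counting error, 1 factor thus described the set in none of the knockout groups. RNA of these genes from other cells of a culture would also give departures, and its part was not tested.

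In L3mbtl2 knockout 12 genes lay above the factor (Mmp12, Wfdc17, C1qa, C1qc, Ccl6, Ccl9, Pf4, Clec4n, Clec4d, Msr1, Ms4a7 and Ms4a6d) and 14 below it. Ms4a7 was farthest above, at a ratio of 7.50 (6.01 to 9.43), followed by Pf4 at 6.21 (5.25 to 7.39) and C1qc at 5.19 (4.26 to 6.34). Coro1a, Cd68 and Laptm5 were farthest below, with Laptm5 at 1.27 (1.21 to 1.32), and Ccl3 at 1.42 (1.23 to 1.63) and Cd14 at 1.91 (1.72 to 2.12) were also below. In both replicates, each set against wild type alone, 10 of the genes were above and 10 below. For 23 of 36 genes the ratio of means lay within 0.5 log2 units of the median, and for 6 it lay beyond 1 unit.

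In Pcgf6 knockout 13 genes lay above the factor (Lyz2, Ctss, Wfdc17, C1qa, C1qb, C1qc, Pf4, Trem2, Mrc1, Spi1, Ms4a7, Ms4a6d and Laptm5) and 13 below it (Mmp12, Mpeg1, Cybb, Lgals3, Cd68, Ccl3, Ccl4, Ccl6, Clec4n, Clec4d, Cd14, Adgre1 and Coro1a). C1qc was at 3.81 (3.10 to 4.72) and Laptm5 at 2.53 (2.43 to 2.63), while Ccl3 was at 0.262 and Adgre1 at 0.556 (0.460 to 0.669). In both replicates, each set against wild type alone, 11 of the genes were above and 5 below. For 16 of the 37 genes both Pcgf6 knockout libraries lay above all wild type libraries (36.2% of all genes) and for 10 both lay below (29.2% of all genes), shares near those of all genes. In L3mbtl2 knockout 34 were above (46.7% of all genes) and 1 below (32.8%). For 9 genes L3mbtl2 knockout was above and Pcgf6 knockout below wild type in every library (8.44% of all genes).

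**Figure D3:**
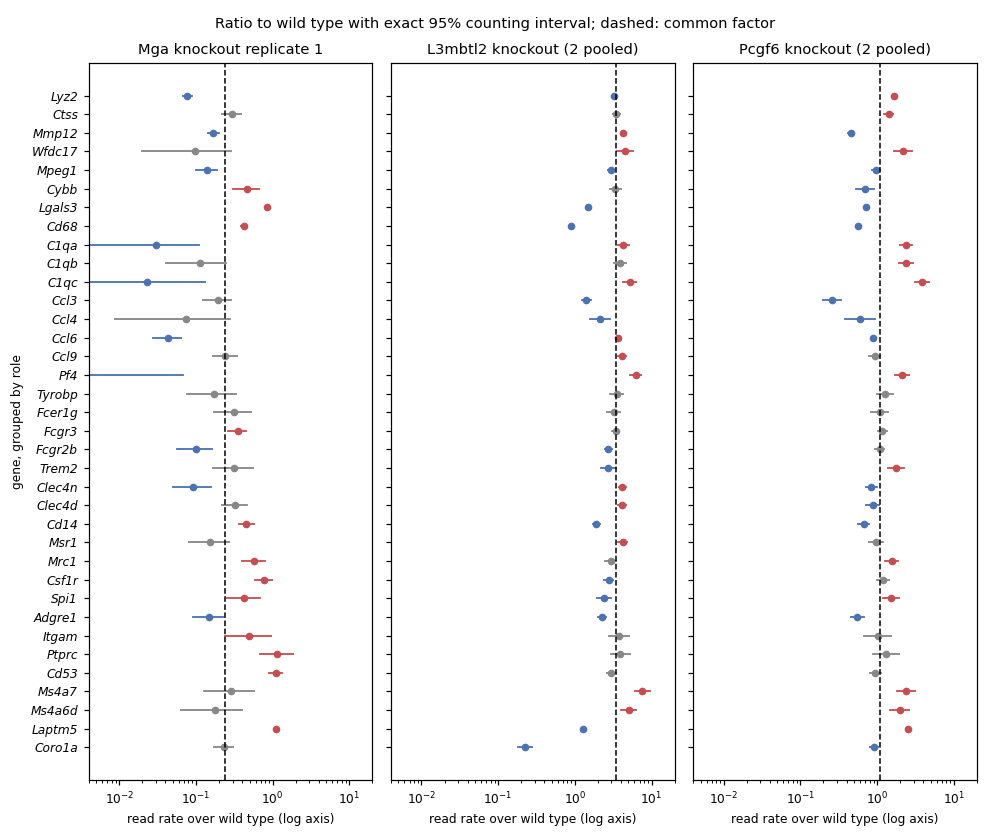
Ratio of read rates to wild type (log axis) for 36 genes with exact 95% counting intervals, in Mga-labelled replicate 1 and in the pooled L3mbtl2 and Pcgf6 knockout libraries. The dashed line is the common factor (0.236, 3.40 and 1.08), red genes lie above it, blue below and grey within. Lines that meet the left edge run on towards 0, and Pf4, with no read in Mga-labelled replicate 1, has no point there.

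The proportion of genes to each other shows the split within single libraries. The summed FPKM of the 3 C1q chains over that of Mmp12 was 5.54 and 6.37 in Pcgf6 knockout and 1.02 and 1.04 in L3mbtl2 knockout, against 0.824, 1.05 and 1.14 in wild type. Over Ccl3 it was 7.29 and 8.24 in Pcgf6 knockout and 2.49 and 2.15 in L3mbtl2 knockout, against 0.634, 0.826 and 0.821 in wild type. L3mbtl2 knockout thus kept the wild type proportion of C1q to Mmp12 but not of C1q to Ccl3, and Pcgf6 knockout kept neither. The genes compared here were picked after their values were seen.

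Pcgf6 and L3mbtl2 knockout were compared directly, in a contrast that uses no wild type library. In limma fits on log2(FPKM + 0.1) with Benjamini-Hochberg adjustment, 19 of 35 genes passed, 17 lower and 2 higher in Pcgf6 than in L3mbtl2 knockout. Over all genes 30.5% passed, 16.6% lower and 13.9% higher. Cybb and Itgam are among the 17 but passed the filter only through the L3mbtl2 knockout libraries, where they are high, so their calls are not counted as results. Counting was then limited to genes that meet the filter in the Mga-labelled and wild type libraries alone, as added after seeing the data. With the adjusted p of the same fit, not refitted, 16 of 30 genes passed, 14 lower and 2 higher. Of all genes so limited, 30.5% passed. Of the 35 genes, 23 had an unadjusted limma p under 0.05, for which no share of all genes was counted. The median log2 change of the 35 genes was -1.47, against -0.08 over all genes. Both Pcgf6 knockout libraries lay below both L3mbtl2 knockout libraries for 34 of the genes (45.5% of all genes) and above them for 2 (37.0%).

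Mmp12 fell most, by 3.17 on the log2 scale (SE 0.67, limma adjusted p = 0.00957). The lectin Clec4n fell by 2.27 (SE 0.66, limma adjusted p = 0.0325), Msr1 by 2.02 (SE 0.45, adjusted p = 0.0120) and Ccl6 by 2.00 (SE 0.54, adjusted p = 0.0251). Adgre1 fell by 1.94 (SE 0.49, limma adjusted p = 0.0195) and Fcgr2b by 1.29 (SE 0.22, adjusted p = 0.00394). Pf4 fell by 1.57 (SE 0.30, limma adjusted p = 0.00659), Ms4a7 by 1.53 and C1qa by 0.83 (SE 0.26, adjusted p = 0.0417). Also lower past the threshold were Ccl4, Ccl9, Mpeg1, Fcer1g, Fcgr3 and Ms4a6d, with log2 changes of -2.12 to -1.31. The 2 that rose were Coro1a, by 1.88 (SE 0.44, limma adjusted p = 0.0150), and Laptm5, by 0.99 (SE 0.27, adjusted p = 0.0267).

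The fit shares 1 spread over all 10 libraries, and that of these genes was widest in the Mga-labelled libraries, with a median SD of 0.885 log2 units, against 0.0600 in L3mbtl2 knockout, 0.134 in Pcgf6 knockout and 0.126 in wild type. Lyz2 had a log2 change of -0.99 (SE 1.29, limma adjusted p = 0.584) although its 4 libraries did not overlap, and in a limma fit of the Pcgf6 and L3mbtl2 knockout libraries alone its adjusted p was 4.97e-05. That fit called 34 of the 35, and 67.6% of all genes. In the other direction, leaving out 1 replicate of Pcgf6 or L3mbtl2 knockout left fewer calls in the set and a smaller share of all genes called. There the lone sample is assumed to vary like the other groups. Each of the 19 calls was lost under at least 1 alternative, Fcgr2b under 1 of 13 and C1qa under 8 of 13.

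**Figure D4:**
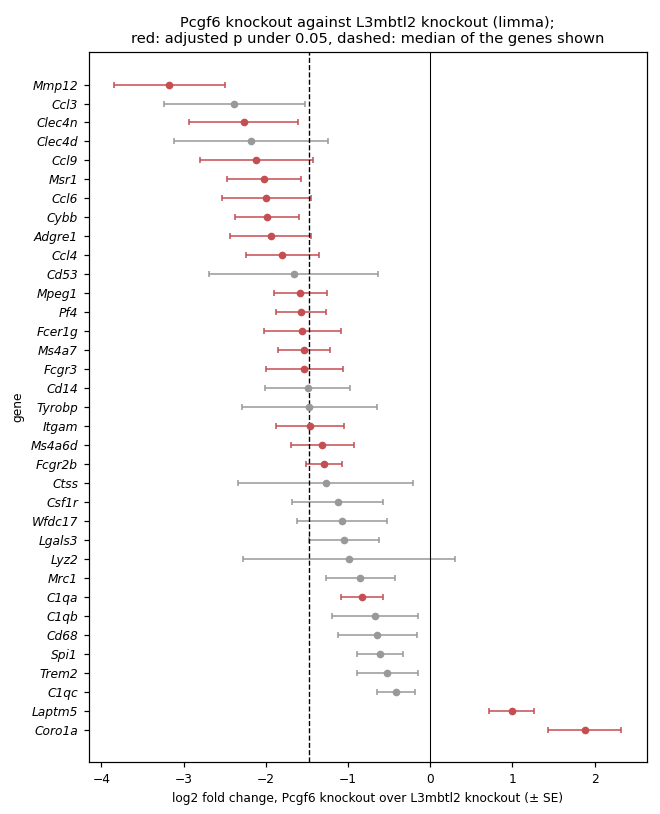
Log2 fold change of 35 genes, Pcgf6 knockout over L3mbtl2 knockout, with limma's SE. Red genes have an adjusted p under 0.05 (Cybb and Itgam entered only through L3mbtl2 knockout), the dashed line is the median of -1.47, and Mmp12 at -3.17 and Coro1a at 1.88 are the ends of the range.

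Relative to each other, Pcgf6 and L3mbtl2 knockout differed by a common factor of 0.346, and 23 of 36 genes departed from it beyond counting error. The 14 above included C1qc at 0.736 (0.631 to 0.857), Trem2 at 0.655 (0.526 to 0.814), Spi1 at 0.634 (0.504 to 0.795) and Lyz2 at 0.502 (0.489 to 0.515). The 9 below were Mmp12 at 0.108 (0.0999 to 0.116), Ccl3 at 0.185 (0.139 to 0.243), Clec4n at 0.203 (0.175 to 0.235), Cybb, Ccl6, Ccl9, Clec4d, Msr1 and Adgre1. The C1q chains and the chemokines of chromosome 11 thus lay on opposite sides of the factor, apart from Ccl4, whose interval held it.

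The libraries labelled Mga knockout differed among themselves. For 30 of the genes replicate 1 was above replicates 2 and 3 (35.3% of all genes). All 3 were below all wild type libraries for 33 of the genes (20.5% of all genes) and above them for Laptm5 alone (28.3% of all genes). In replicates 2 and 3 pooled, 7 of 36 genes had no read (Wfdc17, C1qb, C1qc, Tyrobp, Clec4n, Clec4d and Msr1). From a floor of 3 counts over both libraries, they were at least 20.2-fold (Wfdc17) to at least 97.8-fold (Clec4n) lower than in wild type. A further 13 genes had 1 to 9 reads. Lyz2 had 12 reads, a rate 481-fold lower than in wild type (counting interval 275 to 931), and Mmp12 had 34, 55.4-fold lower (39.6 to 80.2). The 16 genes with 10 or more reads included Spi1, 2.42-fold lower (1.68 to 3.55), Cd14, 7.95-fold lower (5.97 to 10.8), and Csf1r, 6.46-fold lower (4.49 to 9.60).

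In Mga-labelled replicate 1, against its factor of 0.236, Cd53 stood at 1.10 (0.893 to 1.34), Ptprc at 1.14 (0.693 to 1.84) and Csf1r at 0.762 (0.590 to 0.974), while Lyz2 stood at 0.0769 (0.0671 to 0.0877), Ccl6 at 0.0433 (0.0279 to 0.0641) and C1qa at 0.0304 (0.00366 to 0.111). Genes kept near wild type and genes nearly lost were thus found in the same library. The summed level of 15 fibroblast genes was 736 FPKM in that library and 224 and 303 FPKM in replicates 2 and 3, with 286 to 289 FPKM in L3mbtl2 knockout and 209 to 213 FPKM in Pcgf6 knockout, against 245 to 249 FPKM in wild type. The part of fibroblasts in the levels of the macrophage genes was not tested.

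**Figure D5:**
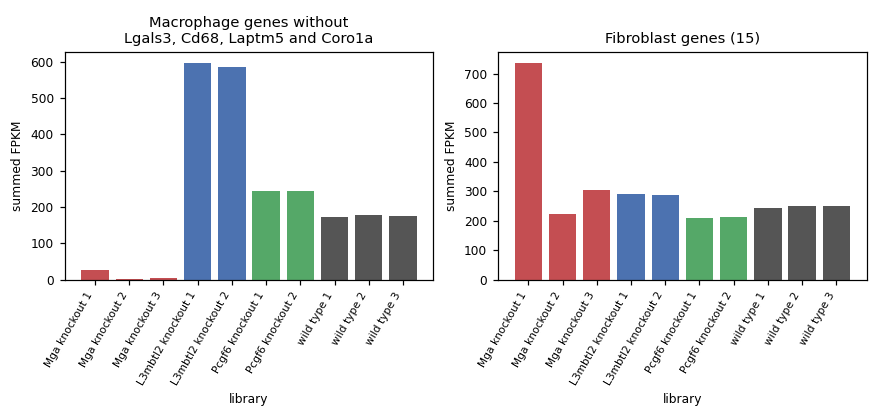
Summed FPKM per library of the macrophage genes without Lgals3, Cd68, Laptm5 and Coro1a (left) and of 15 fibroblast genes (right), axes from 0. The left panel is highest in L3mbtl2 knockout (585 to 597), and the right panel in Mga-labelled replicate 1 (736).

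A longer list of 80 further macrophage and leukocyte genes, 79 of them in the files and 55 tested, was given the same fits. In Pcgf6 against L3mbtl2 knockout, limma called 4 higher (Apoe, Cd37, Csf2ra and Was) and 17 lower, where 30.5% of all genes were called, with a median log2 change of -0.67. Genes high in L3mbtl2 knockout could pass the filter on low values through those libraries alone. This was not checked for this list, so its calls are given as description. Clec7a, a receptor for fungal glucan, fell by 2.45 (SE 0.51, limma adjusted p = 0.00917) and Marco, a scavenger receptor, by 2.37 (SE 0.39, adjusted p = 0.00349). Tnf, an inflammatory cytokine, fell by 1.99 (adjusted p = 0.0132) and Cxcl2, a chemokine for neutrophils, by 2.51 (limma adjusted p = 0.000486). Apoe, a lipid carrier that many cells make, rose by 2.83 (SE 0.48, limma adjusted p = 0.00399). Described against wild type, 5 of these 55 were called higher and 24 lower in the Mga-labelled libraries (39.5% of all genes were called). In L3mbtl2 knockout 25 were called higher and 3 lower (40.0% of all genes), and in Pcgf6 knockout 2 higher and 2 lower (10.1% of all genes).

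Markers of other blood cells were not all low. Mast cell and basophil genes summed to 8.77, 1.21 and 1.61 FPKM in Mga-labelled replicates 1 to 3. They were at 6.49 to 6.67 in L3mbtl2 knockout and 4.66 to 6.88 in Pcgf6 knockout, against 4.23 to 5.39 FPKM in wild type. Megakaryocyte genes summed to 4.03, 0.733 and 2.16 FPKM in Mga-labelled replicates 1 to 3. They were at 1.80 to 2.17 in L3mbtl2 knockout and 1.35 to 1.38 in Pcgf6 knockout, against 1.12 to 1.55 FPKM in wild type. For osteoclast genes the sums were 24.98, 13.6 and 14.5 FPKM in Mga-labelled replicates 1 to 3. They were at 17.7 to 19.3 in L3mbtl2 knockout and 12.2 to 13.8 in Pcgf6 knockout, against 13.4 to 13.9 FPKM in wild type. Over all 10 libraries, B cell genes summed to 1.46 to 5.41 FPKM and erythroid genes to 2.03 to 4.57 FPKM. The neutrophil genes S100a9, Ngp and Retnlg and the macrophage gene Chil3 were at 0 in every library. The summed level of 12 neutrophil genes was 5.97, 0.452 and 0.688 FPKM in Mga-labelled replicates 1 to 3. It was 10.6 to 10.8 in L3mbtl2 knockout and 3.11 to 3.23 in Pcgf6 knockout, against 2.29 to 2.58 FPKM in wild type. In L3mbtl2 knockout most of it was S100a8 and Mmp8, a collagenase, at 6.22 ± 0.308 and 3.98 ± 0.0996 FPKM (SD, n = 2), against 1.17 ± 0.0621 and 1.01 ± 0.0726 FPKM in wild type (SD, n = 3). Over all 10 libraries, 5 natural killer cell genes summed to 0.126 FPKM or less and 7 dendritic cell genes to 1.72 FPKM or less. The T cell genes summed to 13.8 to 15.2 FPKM in Pcgf6 knockout, of which Lck gave 11.1 ± 0.827 FPKM, against 7.10 to 7.75 FPKM in wild type. Endothelial genes summed to 15.6 to 26.6 FPKM in the Mga-labelled libraries, 42.2 to 43.5 FPKM in L3mbtl2 knockout and 23.2 FPKM in both Pcgf6 knockout libraries, against 31.8 to 33.8 FPKM in wild type. Their part in the results was not tested.

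Among 10032 genes with at least 2 FPKM in wild type, likeness to the median profile of the set was measured as the root mean square difference in log2 ratio over the 10 libraries. The profile is that of the set itself, so members near it are partly given. Of the 20 members compared, 7 were among the 25 nearest genes, led by Fcer1g (0.128), Fcgr3 (0.194) and Mpeg1 (0.297). The 10 nearest others were Gm5566 (0.379), Gm49339 (0.485), Gpnmb (0.510), Tfpi2 (0.580), Cd36 (0.622), Adam8 (0.649), Mmp10 (0.675), Capn11 (0.708), Mmp3 (0.793) and Il33 (0.811). Gpnmb, a lysosomal glycoprotein of macrophages and pigment cells, had 10.5, 4.01 and 3.89 FPKM in the Mga-labelled libraries, 56.9 and 59.1 FPKM in L3mbtl2 knockout and 24.3 and 24.4 FPKM in Pcgf6 knockout, against 19.0, 20.1 and 19.7 FPKM in wild type. Mmp3, a stromelysin that fibroblasts make, had 107, 18.8 and 12.8 FPKM in the Mga-labelled libraries, 168 and 170.0 FPKM in L3mbtl2 knockout and 78.2 and 73.2 FPKM in Pcgf6 knockout, against 102, 103 and 98.0 FPKM in wild type. Mmp3, unlike Lyz2, was above wild type in Mga-labelled replicate 1. Laptm5 (2.03), Coro1a (1.99) and Lyz2 (2.40) were far from the profile. Lyz2 moved in the direction of the profile in the Mga-labelled and L3mbtl2 knockout libraries. Ratios were taken of FPKM + 0.1, which limits the fall of genes with low wild type levels more than that of Lyz2. The profile was at -1.84, -3.23 and -3.09 in the Mga-labelled libraries, where the log2 change of Lyz2 in the limma fit was -6.77.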

How the data were processed

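The deposited FPKM values per gene were made by the authors from reads processed, per the submitters' processing notes, with Bowtie2 2.2.3, TopHat2 2.0.12 and HTSeq 0.6.0 on GRCm38. Symbols came from GENCODE M21. Libraries came from Trizol RNA with a NEBNext Ultra kit, per the labels' protocols. Whole reads were recovered from the FPKM steps within 0.005 of a read, for 77.9% of genes above 0 at the GENCODE exon length and for 22.1% at a length found from the values. They gave depths and exact 95% conditional binomial intervals, which cover counting error only.

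limma 3.58.1 (R 4.3.3) was fitted to log2(FPKM + 0.1) of all 10 libraries with group as the only term, for 15731 genes that reached 0.5 FPKM in 2 or more libraries, with Benjamini-Hochberg adjustment over all of them and a threshold of 0.05. Fold changes understate those of genes near 0. The fit was tested on simulated data. Groups came from the labels. The genes, lists and tests were chosen with earlier results of these data known. Genes given with every library are the 2 of highest wild type mean in each role, up to 3 farthest above and 3 farthest below the common factor in each knockout group, and those under 20 reads. The others are given by means. Alternatives were the pseudocount, filter, scaling, limma-voom on recovered reads, a 2-group fit, the replicate block and each library of the compared groups left out.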

Additional observations from a re-analysis of the deposited data

Results flagged for a closer look

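For 9 genes, every L3mbtl2 knockout library lay above every wild type library and every Pcgf6 knockout library lay below (8.44% of all genes), so that both knockouts moved in opposite directions from shared wild type libraries. That choice fixes the direction of the difference between Pcgf6 and L3mbtl2 knockout, which is therefore given as a description and no test. The log2 change of Pcgf6 over L3mbtl2 knockout was -3.17 for Mmp12, -1.98 for Cybb, -1.80 for Ccl4, -1.997 for Ccl6, -2.27 for Clec4n and -1.94 for Adgre1. It was -2.38 for Ccl3, -1.49 for Cd14 and -1.05 for Lgals3, which did not pass in the limma fit over all genes. Cybb passed the filter on low values only through the L3mbtl2 knockout libraries.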

How the results depend on the processing

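Counts of genes called of the set moved by over 1.5 times under these settings. With a pseudocount of 0.01 there were 10 for L3mbtl2 knockout and 2 for Pcgf6 knockout, each against wild type, and 6 for Pcgf6 against L3mbtl2 knockout. In these 3 comparisons 39.3%, 9.82% and 29.2% of all genes were called. With a pseudocount of 1 there were 11 for Pcgf6 knockout against wild type (10.4% of all genes) and 29 for Pcgf6 against L3mbtl2 knockout (31.3%). With only the 2 groups in the fit there were 34 for L3mbtl2 knockout and 17 for Pcgf6 knockout against wild type, and 34 for Pcgf6 against L3mbtl2 knockout, where 72.6%, 50.4% and 67.6% of all genes were called. Single libraries were left out only from the 2 groups compared, apart from Mga-labelled replicate 2. For the Mga-labelled libraries against wild type this gave 27 to 33 calls (26.8% to 55.4% of all genes). Without 1 wild type library there were 17 or 18 for L3mbtl2 knockout (28.9% to 30.4% of all genes) and 1 or 2 for Pcgf6 knockout (3.28% to 3.96%). Without Mga-labelled replicate 2 there were 26 for L3mbtl2 knockout against wild type (54.6% of all genes) and 20 for Pcgf6 against L3mbtl2 knockout (47.2%). Mga-labelled replicates 1 and 3 were not left out of comparisons between other groups. The fewest for L3mbtl2 knockout came without its replicate 1 (8) or 2 (10). For Pcgf6 knockout against wild type, limma called 0 without its replicate 2 (5 at an unadjusted p under 0.05) and 7 once Mga-labelled replicate 2 was left out of the fit, a setting added after seeing the data.

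Replicate numbers did not pair the libraries: deviations of same-numbered libraries correlated at -0.020 to 0.035 across genes. With the number as a replicate block, 30, 18 and 2 genes were called for Mga, L3mbtl2 and Pcgf6 knockout against wild type. Of all genes 35.8%, 34.7% and 6.31% were called there. For Pcgf6 against L3mbtl2 knockout the count was 15 (26.1% of all genes).

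The log2 common factor was -3.35, 1.77 and 0.10 for the Mga-labelled libraries, L3mbtl2 knockout and Pcgf6 knockout. Over genes of at least 10 FPKM in wild type it was -1.03, 0.59 and -0.15, from summed FPKM it was -1.80, 1.38 and 0.32, and with median-of-ratios scaling it was 1.69 for L3mbtl2 knockout. The genes of at least 10 FPKM were only Lyz2, Lgals3, Cd68, Laptm5 and Ccl6. Their medians are thus the values of single genes (Cd68, Lgals3 and Ccl6), and Lgals3, Cd68 and Laptm5 did not follow the rest of the set. Among genes with at least 100 reads, 13, 15 and 12 departed for the same 3 groups, against 25, 26 and 26 of all 36. Fewer genes were counted there, so the lower counts do not mean a lower share. The fibroblast sum of L3mbtl2 knockout was 280 FPKM with median-of-ratios scaling. Direction changed only for genes near 0 in Pcgf6 knockout against wild type: Fcer1g to -0.0695 under the replicate block, and, as ranges with 1 library left out, Itgam (-0.0696 to 0.0984), Fcgr2b (-0.00678 to 0.192), Fcer1g (-0.113 to 0.282), Coro1a (-0.316 to 0.0306), Msr1 (-0.333 to 0.216), Cd53 (-0.337 to 0.120), Ccl9 (-0.317 to 0.0557) and Mpeg1 (-0.206 to 0.0833), none of them called. The other causes were not tested. Of single-gene results under alternatives, 1615 kept direction and side of the threshold, 94 passed it newly, 185 no longer passed and 12 changed direction. Genes under 20 reads per library could not be set against the factor at this depth.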

Other observations

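Growth factors of macrophages were looked at after the other values were seen. Csf1, whose product binds the receptor encoded by Csf1r, had 21.2, 4.04 and 5.98 FPKM in the Mga-labelled libraries, 16.2 and 17.1 FPKM in L3mbtl2 knockout and 13.8 and 13.3 FPKM in Pcgf6 knockout, against 10.3, 10.8 and 10.6 FPKM in wild type. Replicate 1 was the highest of the Mga-labelled libraries, as it was for Lyz2, and the part of Csf1 in the levels of the set was not tested. Il34, the other ligand of that receptor, had 2.86, 1.498 and 1.57 FPKM in the Mga-labelled libraries, 1.59 and 1.68 FPKM in L3mbtl2 knockout and 0.396 and 0.632 FPKM in Pcgf6 knockout, against 0.662, 0.707 and 0.556 FPKM in wild type.

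Genes of the longer macrophage list named here were chosen after their values were seen. Spp1 averaged 436 ± 84.2 FPKM in the Mga-labelled libraries, 710 ± 22.1 FPKM in L3mbtl2 knockout and 462 ± 14.1 FPKM in Pcgf6 knockout, against 450 ± 11.5 FPKM in wild type. Apoe averaged 321 ± 213 FPKM, 103 ± 1.69 FPKM and 735 ± 18.1 FPKM in the same groups, against 513 ± 26.6 FPKM in wild type. Saa3, an acute phase protein, was at 45.8, 43.2 and 41.1 FPKM in the Mga-labelled libraries, 12.8 and 14.5 FPKM in L3mbtl2 knockout and 10.5 and 13.1 FPKM in Pcgf6 knockout, against 7.56, 8.53 and 8.71 FPKM in wild type, so that it was high in all 3 libraries in which Lyz2 was low.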
